A study of Mus musculus with 6 samples.

Results

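The 9 genes described here encode the urokinase arm of plasminogen activation and its neighbours in macrophages: Plau (urokinase), its receptor gene Plaur, the serpin genes Serpinb2, Serpinb1a, Serpinb6a and Serpinb9, and the coagulation genes F3, F10 and Thbd. They were chosen by gene symbol, and all 9 are among the 15824 genes of the expression table. RNA was sequenced from cells labelled as alveolar macrophages, sorted by flow cytometry from lungs of mice aged 8 weeks, in 3 libraries from Men1 knockout mice (KO) and 3 from wild-type mice (WT). Men1 encodes menin, a scaffold protein of histone methyltransferase complexes, and the libraries set transcript levels in its knockout against those in wild-type cells. The sources used here do not name the strain, the deleted exons or the driver of the deletion, nor do they say that each library came from its own animal. The spread behind each p-value may therefore be technical only.

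Urokinase is a serine protease that cleaves plasminogen to plasmin, a protease that dissolves fibrin and activates growth factors and metalloproteinases. Its receptor, anchored in the membrane by a lipid, holds urokinase at the surface of macrophages and neutrophils. Serpins trap proteases as inactive complexes, and those of clade B mostly stay inside the cell. In inflamed lung, macrophages carry both the machinery that lays down fibrin (tissue factor and the factors it activates) and the machinery that removes it.

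Library totals lay between 19955232 and 20151985 counts. Men1 had 150, 149 and 165 counts in the KO libraries, against 639, 594 and 603 in the WT libraries. Summed counts of 4 Y-linked genes were 0 to 2 in KO libraries and 3320 to 3445 in WT libraries, so genotype and the presence of Y-linked transcripts cannot be told apart in any difference below. Of 18 alveolar macrophage markers, 14 were in the table and 9 were tested, of which 4 were higher and 4 lower in KO (34.4% of all genes tested were higher and 34.9% lower). Trim29, among those higher, passed the filter on low counts only through its KO libraries. The summed level of the markers was 1421 to 1459 CPM (counts scaled to library depth) in KO libraries and 492 to 506 CPM in WT libraries, mostly from Marco, at 1137 ± 22.8 CPM in KO and 172 ± 2.17 CPM in WT (SD, n = 3 each). Mrc1, Atp6v0d2, Itgax, Fabp4, Chil3 and Pparg were also read, between 13.1 and 131 CPM in KO and between 6.94 and 119 CPM in WT (means). The more specific markers Fabp1, Plet1, Ear2 and Ear6 had at most 3 counts in every library, and Siglecf averaged 1.34 ± 0.154 CPM in KO and 2.06 ± 0.381 CPM in WT (SD, n = 3 each). Of 8 general macrophage markers, all tested, 6 were higher and 0 lower in KO, beside the same 34.4% and 34.9% of all genes tested. Among them, Csf1r averaged 2738 ± 28.5 CPM in KO and 1432 ± 17.6 CPM in WT (SD, n = 3 each). Lyz2, at 18191 ± 362 CPM in KO and 18215 ± 645 CPM in WT, and Cd68, at 1204 ± 23.1 CPM in KO and 1201 ± 9.78 CPM in WT, were alike in both groups (SD, n = 3 each). The cells are called macrophages here, with the alveolar name as the label gives it.

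Plau and Plaur fell together in KO macrophages, 2.48-fold and 2.20-fold, while Serpinb2, which encodes an inhibitor of urokinase, rose 2.02-fold and F10, the factor X gene, rose 1.91-fold. Serpine2, another serpin gene of plasminogen activation that is not among the 9, was 1.21-fold lower. F3 and Thbd were lower and Serpinb6a slightly higher by the same test. Each adjusted p from edgeR is that of its quasi-likelihood test, by the Benjamini-Hochberg method over 11817 genes. At an adjusted p of 0.05 it called 7 of the 9 genes, 3 higher and 4 lower in KO, set against 69.2% of all genes tested (34.4% higher and 34.9% lower), so the number that passed is near the background. The KO and WT libraries did not overlap in CPM for the same 7 genes, 3 higher and 4 lower, beside 35.4% and 35.8% of all genes tested. The median log2 fold change was -0.0014 over the 9 genes and 0.0014 over all genes tested. By size, Plau, Plaur and F3 were lower by at least 2-fold, a class that holds 4.94% of all genes tested, and Serpinb2 was higher by at least 2-fold, a class that holds 3.26%. All 9 genes passed the filter on low counts, but F3 did so only through its WT libraries, where it is high, so its place in these counts is no support. The counts are of RNA in bulk, so fewer cells of a type and less RNA per cell cannot be told apart.

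**Figure D1:**
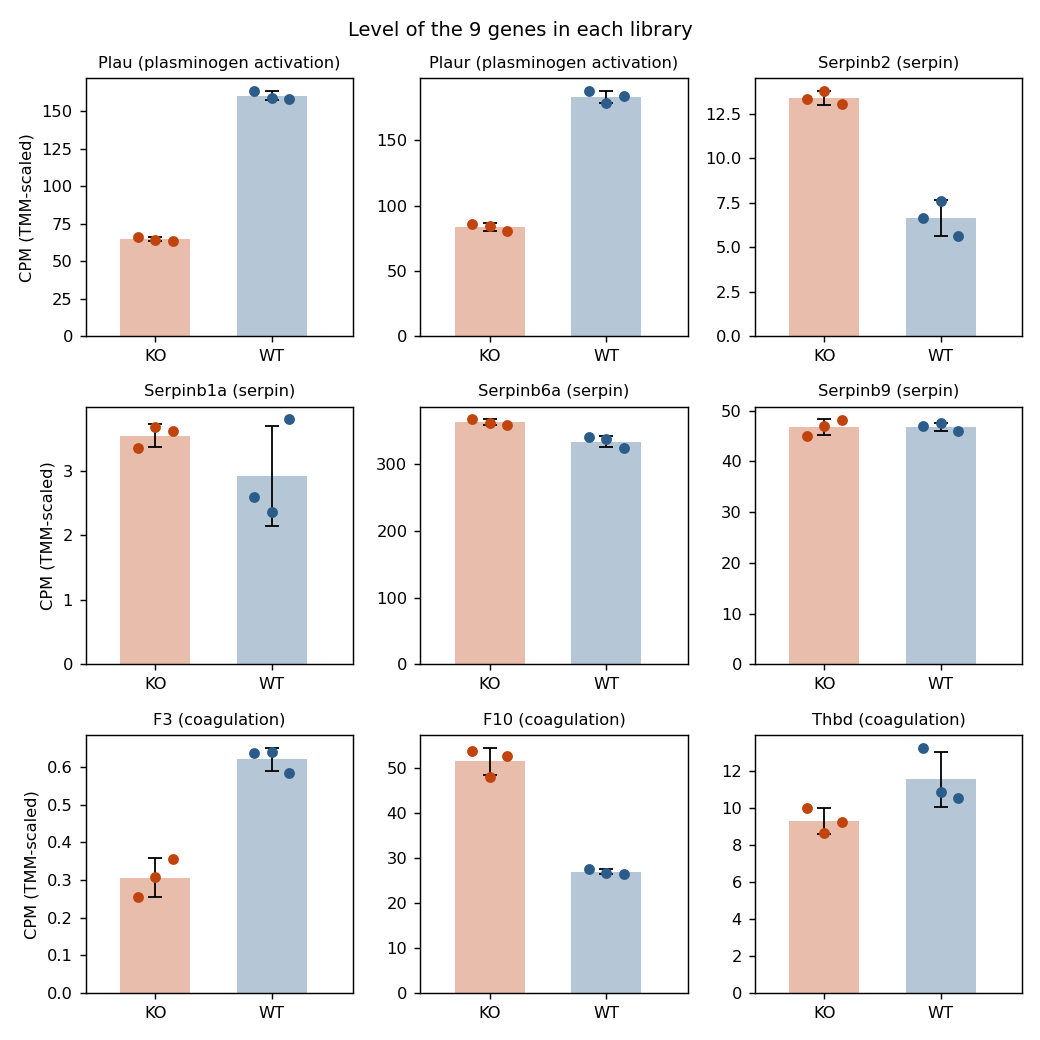
Level of each gene in CPM (vertical axes, each from 0) in the 3 KO and 3 WT libraries. Points are libraries, bars are group means and error bars are 1 SD. Plau and Plaur are lower and Serpinb2 and F10 higher in every KO library than in any WT library, while the libraries of Serpinb1a and Serpinb9 overlap.

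Levels of different genes can be set side by side only per length, as FPKM (fragments scaled to gene length and library depth). Serpinb6a was the most abundant of the 9 genes, at 319 ± 5.72 FPKM in KO and 307 ± 9.77 FPKM in WT (SD, n = 3 each), followed in both groups by Plaur and then Plau. In KO, F10 and Serpinb9 came next with ranges that overlapped, then Serpinb2, then Thbd and Serpinb1a, whose ranges overlapped too. In WT, the order after Plau was Serpinb9, F10, Serpinb2 and Thbd, with overlapping ranges of the last pair, and then Serpinb1a. F3 was the lowest in both groups, at 0.193 ± 0.0351 FPKM in KO and 0.410 ± 0.0173 FPKM in WT (SD, n = 3 each). Plaur was above 91.07% of the listed genes in KO and above 96.02% in WT, on the FPKM scale.

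The receptor gene Plaur lies on chromosome 7 from position 24460937 to 24475970 (GRCm38.p6, plus strand), Serpinb2 on chromosome 1 from 107500892 to 107525600 (plus strand) and F10 on chromosome 8 from 13037308 to 13056676 (plus strand). RefSeq's table of build GRCm38.p6 gave a promoter for 6 of the 9 genes, and Plau, Serpinb1a and Thbd had no entry. The 250 bases before a start site are shown for the genes with an entry whose change passed in every setting tried, to show which short motifs precede these starts. The Plaur and Serpinb2 windows lie inside the gene spans just given, before starts within them, and the F10 window lies before its span. Capitals mark every match, on either strand, to 6 searched motifs. The motif used for AP-1 factors was TGANTCA. The motif used for ETS factors such as the macrophage factor PU.1 was GAGGAA. The motif searched as the TATA box was TATAAA, and that searched as the cyclic AMP response element (CRE) was TGACGTCA. For SP1, a factor of many promoters with no TATA box, the motif was GGGCGG. The NF-kB motif began with 3 G, ended with 2 C and had any 5 bases in between.
Plaur, chr7:24462233-24462482, plus strand: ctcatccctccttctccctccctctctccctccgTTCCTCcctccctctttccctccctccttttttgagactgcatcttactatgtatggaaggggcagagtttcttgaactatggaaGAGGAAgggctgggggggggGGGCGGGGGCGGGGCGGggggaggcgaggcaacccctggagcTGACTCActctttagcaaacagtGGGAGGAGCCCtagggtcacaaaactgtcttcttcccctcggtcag
Serpinb2, chr1:107511173-107511422, plus strand: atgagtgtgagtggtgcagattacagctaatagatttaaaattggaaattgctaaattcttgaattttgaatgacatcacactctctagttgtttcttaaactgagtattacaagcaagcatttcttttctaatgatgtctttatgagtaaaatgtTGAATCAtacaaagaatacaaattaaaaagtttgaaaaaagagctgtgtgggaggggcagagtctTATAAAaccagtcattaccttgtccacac
F10, chr8:13037058-13037307, plus strand: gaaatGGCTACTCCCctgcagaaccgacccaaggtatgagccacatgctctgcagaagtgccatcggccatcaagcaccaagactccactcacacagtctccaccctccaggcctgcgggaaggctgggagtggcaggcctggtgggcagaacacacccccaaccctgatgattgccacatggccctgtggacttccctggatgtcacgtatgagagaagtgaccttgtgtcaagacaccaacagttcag
The Plaur window holds 1 AP-1 match, TGACTCA, from 69 to 63 bases before the start, along with matches to NF-kB, ETS and SP1. Of its 3 SP1 matches, the first ends where the next begins and the last 2 overlap by 1 base. The Serpinb2 window shown holds the AP-1 match TGAATCA from 94 to 88 bases before the start and a TATA match from 29 to 24 bases before it. The table has a second Serpinb2 start further along, whose window overlaps this one and holds the same matches, AP-1 from 181 to 175 and TATA from 116 to 111 bases before that start. The F10 window holds no AP-1 match and 1 NF-kB match. AP-1 matches also stood in the F3 window, and 6.75% of all 32851 promoters in the table hold one. NF-kB, with its 5 free letters, matches 45.8% of them, SP1 32.7%, ETS 23.3%, TATA 12.4% and CRE 1.55%. These matches are a description of letters and show no binding.

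Plau encodes urokinase, and lies on chromosome 14 from position 20836662 to 20843388 (plus strand). Its counts were 1302, 1258 and 1248 in the KO libraries, against 3337, 3236 and 3244 in the WT libraries. Every KO library was far below every WT library, and the libraries of each group lay close together. The mean was 64.6 ± 1.29 CPM in KO and 160.3 ± 3.01 CPM in WT (SD, n = 3 each), and edgeR gave a log2 fold change of -1.31 with an SE of 0.0304, 95% interval -1.37 to -1.25 (adjusted p = 1.39e-29).

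Plaur encodes the urokinase receptor. It had 1696, 1646 and 1576 counts in the KO libraries, against 3830, 3636 and 3766 in the WT libraries. The groups did not overlap here either, and the shift was slightly smaller than that of its ligand. The mean was 83.5 ± 2.94 CPM in KO and 183 ± 4.65 CPM in WT (SD, n = 3 each), and edgeR gave a log2 fold change of -1.14 with an SE of 0.0300, 95% interval -1.20 to -1.07 (adjusted p = 7.72e-28). The FPKM of Plau relative to that of Plaur was 0.450, 0.450 and 0.466 in the KO libraries and 0.509, 0.522 and 0.506 in the WT libraries. The 2 sets of ratios did not overlap, and the exact two-sided permutation test gave p = 0.1, the smallest that 3 libraries against 3 allow.

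Markers of other cells moved as well between the groups, where 34.4% of all genes tested rose and 34.9% fell. Of the monocyte markers, 7 of 10 tested rose and 1 fell, with a summed level of 508 to 522 CPM in KO libraries and 145 to 153 CPM in WT libraries. Of the fibroblast and mesothelial markers, 12 of 12 tested fell (Msln had at most 3 counts in every library), with a summed level of 22.4 to 25.3 CPM in KO and 114 to 117 CPM in WT. Of the neutrophil markers, 6 of 9 tested rose and 3 fell, at 791 to 814 CPM in KO and 890 to 907 CPM in WT, sums carried mostly by Mmp8, and Retnlg had at most 3 counts in every library. Among these markers, Lum, Tagln, Pdgfra and Mpo passed the filter on low counts only through their WT libraries, and Chil1 and Ngp only through their KO libraries. Their place in these counts is no support. The part of the monocyte, fibroblast, mesothelial and neutrophil markers in the fall of Plau and Plaur was not tested.

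Serpinb2 encodes plasminogen activator inhibitor type 2, a serpin of macrophages that inhibits urokinase and is largely kept in the cytosol. Its counts were 262, 270 and 256 in the KO libraries, against 135, 155 and 115 in the WT libraries. All KO libraries stood above all WT libraries, with a wider scatter among the WT ones. The mean was 13.4 ± 0.382 CPM in KO and 6.62 ± 1.004 CPM in WT (SD, n = 3 each), and edgeR gave a log2 fold change of 1.02 with an SE of 0.0916, 95% interval 0.83 to 1.20 (adjusted p = 3.79e-12). Serpinb2 thus moved against Plau and Plaur, at a level well under either on the FPKM scale (7.97 ± 0.230 FPKM in KO and 4.11 ± 0.630 FPKM in WT, SD, n = 3 each).

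The other 3 serpins changed little or did not pass. Serpinb6a, the mouse counterpart of a human gene for a cathepsin G inhibitor, had 7234, 7072 and 7037 counts in the KO libraries, against 6940, 6855 and 6637 in the WT libraries. In CPM the groups did not overlap, but the shift was only 1.09-fold (log2 fold change 0.12, SE 0.0223, adjusted p = 1.49e-05, edgeR), and on the TPM scale (length-scaled shares of a library) its log2 fold change was -0.02 (adjusted p = 0.576 in limma), on a scale that shifted the median of all genes by -0.14, so the turn in sign is of the size of that common shift. It did not pass on log2(FPKM + 1) either (adjusted p = 0.184 in limma), nor when a biological coefficient of variation of 0.1 was imposed (adjusted p = 0.458 in edgeR's likelihood-ratio test). Its deposited counts were not whole numbers, and its span on chromosome 13 (33917918 to 34002794, minus strand) overlaps Nqo2 and Ripk1 on the other strand, so some of its reads may be shared, since the sources used here do not say whether counting used strand.

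Serpinb9, which encodes an inhibitor of granzyme B, had 888, 921 and 945 counts in the KO libraries, against 958, 967 and 941 in the WT libraries. The groups overlapped in CPM, with means of 46.8 ± 1.56 CPM in KO and 46.8 ± 0.832 CPM in WT (SD, n = 3 each). The log2 fold change was -0.0014, with a 95% interval from -0.08 to 0.08 (adjusted p = 0.978, edgeR). It passed as lower in KO on the length-scaled units, with log2 fold changes of -0.11 on log2(FPKM + 1) (adjusted p = 0.022, limma) and -0.19 on log2(TPM + 1) (adjusted p = 0.00222, limma). These scales shifted the median of all genes by -0.06 and by -0.14. Granzyme B itself was nearly unread, as Gzmb had at most 1 count in any library.

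Serpinb1a, the mouse counterpart of a human inhibitor of neutrophil elastase, had 66, 72 and 71 counts in the KO libraries, against 53, 48 and 78 in the WT libraries. WT library 3 was the highest of all 6 libraries in CPM, so the groups overlapped. The log2 fold change was 0.28, with a 95% interval from -0.04 to 0.60 (adjusted p = 0.115, edgeR). Without WT replicate 3 it was 0.52 (adjusted p = 0.00794), so that 1 library decides whether Serpinb1a passes. Elane, the elastase gene, had at most 2 counts in any library.

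**Figure D2:**
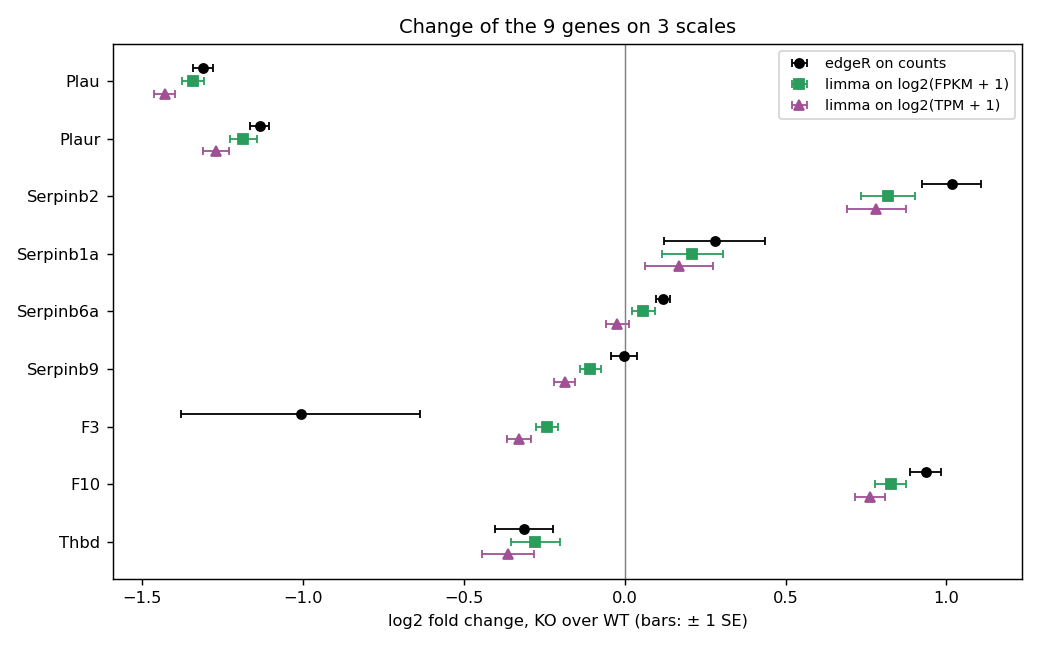
Log2 fold change of KO over WT (horizontal axis) for the 9 genes, from edgeR on counts (circles), limma on log2(FPKM + 1) (squares) and limma on log2(TPM + 1) (triangles), with bars of 1 SE. Plau, Plaur, Serpinb2 and F10 keep their side of 0 well apart from it on all 3 scales, Serpinb6a crosses 0 on the TPM scale, which shifted the median of all genes by -0.14, and F3 shrinks on the log2(value + 1) scales, which understate changes of low genes.

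The shift of the TPM scale relative to the count scale left 2366 of all genes tested higher and 5709 lower, in place of 4060 higher and 4119 lower. Against that shift, the TPM values of Plau (-1.43) and Plaur (-1.27) stood as far below the other genes as their count values did.

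Plau and Plaur were set against each of the 4 serpins by the ratio of FPKM within each library, which gave 8 ratios. Of these serpins, only Serpinb2 is described here as an inhibitor of urokinase. The ratios to the other serpins set transcript levels side by side and do not weigh urokinase against its inhibitor. Plau over Serpinb2 was 4.06, 3.81 and 3.999 in the KO libraries, against 20.2, 17.03 and 23.1 in the WT libraries. Plaur over Serpinb2 was 9.03, 8.47 and 8.58 in the KO libraries, against 39.6, 32.6 and 45.6 in the WT libraries. Urokinase and its receptor transcripts were therefore still in excess of Serpinb2 transcripts in every KO library, by a factor that was 5.04-fold (Plau) and 4.48-fold (Plaur) lower than in WT. Against Serpinb1a, Plau was 12.5 ± 1.24 in KO and 40.5 ± 7.97 in WT (FPKM ratio, SD, n = 3 each). Against Serpinb9 the ratio of Plau was 1.56 ± 0.0801 in KO and 3.73 ± 0.0656 in WT (SD, n = 3 each). Serpinb6a outweighed Plau in both groups, with Plau at 0.0987 ± 0.000585 of it in KO and 0.265 ± 0.00457 in WT (FPKM ratio, SD, n = 3 each). All 8 ratios were lower in each KO library than in any WT library, and each gave p = 0.1 (also 0.1 after Benjamini-Hochberg adjustment over the 8) in the exact two-sided permutation test, the smallest p the design allows. Since Plau and Plaur fell themselves, a lower ratio was fixed for every serpin that did not fall as much, and the ratios to Serpinb2 combine a fall and a rise.

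**Figure D3:**
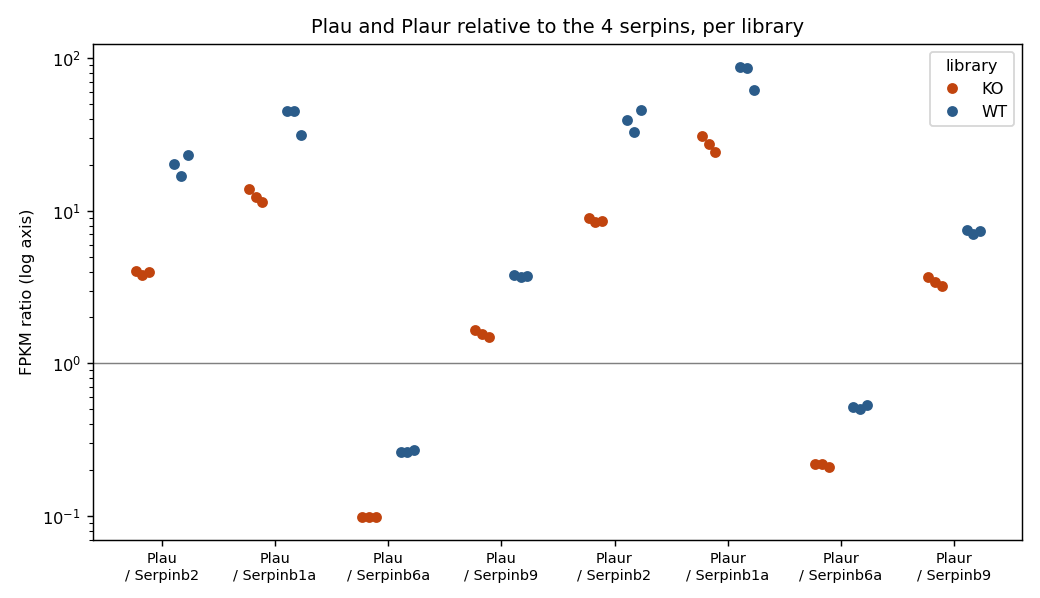
FPKM ratio (log axis) of Plau or Plaur to each of the 4 serpins in the KO and WT libraries, 1 point per library. The KO points lie under the WT points for all 8 ratios, with the widest gap for Serpinb2, and only the ratios to Serpinb6a lie under 1.

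F3 encodes tissue factor, the cell-surface trigger of coagulation. It had 5, 6 and 7 counts in the KO libraries, against 13, 13 and 12 in the WT libraries. These are a few counts above the floor of 3 used here, though the groups did not overlap. In edgeR the log2 fold change was -1.01 with an SE of 0.371 and a 95% interval from -1.76 to -0.25 (adjusted p = 0.0165). DESeq2 did not call it (log2 fold change -1.02, adjusted p = 0.141), and without KO replicate 1 the value was -0.89 with an adjusted p of 0.0614 in edgeR.

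F10 encodes factor X, the protease that tissue factor with factor VII activates. Its counts were 1060, 943 and 1037 in the KO libraries, against 564, 544 and 545 in the WT libraries. Every KO library lay far above every WT library. The mean was 51.6 ± 3.01 CPM in KO and 26.99 ± 0.596 CPM in WT (SD, n = 3 each), and edgeR gave a log2 fold change of 0.93 with an SE of 0.0475, 95% interval 0.84 to 1.03 (adjusted p = 3.85e-19).

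Thbd encodes thrombomodulin, the receptor that turns thrombin towards activating protein C. It had 197, 169 and 181 counts in the KO libraries, against 270, 221 and 216 in the WT libraries. WT library 1 was the highest and the others lay nearer to the KO libraries, without overlap. The mean was 9.28 ± 0.685 CPM in KO and 11.5 ± 1.48 CPM in WT (SD, n = 3 each), and edgeR gave a log2 fold change of -0.31 with an SE of 0.0904 (adjusted p = 0.00256). Without WT replicate 1 it was -0.20 with an adjusted p of 0.0565, and when a biological coefficient of variation of 0.1 was imposed its adjusted p was 0.0709. Endothelial cells carry much thrombomodulin. Of 7 endothelial markers tested, 2 rose (Pecam1, at 7.55 CPM in KO and 4.38 CPM in WT, and Tie1, at 1.596 CPM in KO and 0.849 CPM in WT, means) and 3 fell (Vwf, Kdr and Egfl7), beside 34.4% and 34.9% of all genes tested. Egfl7 passed the filter on low counts only through its WT libraries. The list summed to 68.6 to 70.4 CPM in KO libraries and 81.6 to 84.2 CPM in WT libraries, mostly from Vwf and Kdr, with Emcn and Ramp2 at or under 3 counts in every library. Their part in the Thbd result was not tested.

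Of 31 other listed genes of plasminogen activation, 19 were tested, 9 rose, 6 fell and 4 did not pass (34.4% of all genes tested rose and 34.9% fell), with a median log2 fold change of 0.05, beside 0.0014 over all genes tested. Mrc2, among those that fell, was at 0.339 CPM in KO and 1.29 CPM in WT (means). It passed the filter on low counts only through its WT libraries, so its place in these counts is no support. Plat, which encodes tissue plasminogen activator, had 0, 2 and 3 counts in the KO libraries, against 3, 7 and 5 in the WT libraries, and was too low to be tested. The serpin gene Serpine2 was among those that fell, at 10.1 ± 0.279 CPM in KO and 12.2 ± 0.781 CPM in WT (SD, n = 3 each). Its log2 fold change was -0.27 (adjusted p = 0.00284, edgeR), in the direction of Plau and not of Serpinb2.

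Known partners of the urokinase receptor on the membrane went both ways. The formyl peptide receptor genes Fpr1 and Fpr2, whose products act with the urokinase receptor in cell migration, rose 3.31-fold and 3.02-fold, Fpr1 to 247 ± 3.50 CPM in KO against 74.8 ± 3.16 CPM in WT. Itgam, the alpha chain of the integrin Mac-1, rose 1.33-fold, and Itgb2, its beta chain, rose to 1569 ± 24.6 CPM in KO against 1236 ± 15.1 CPM in WT, whereas the vitronectin receptor chain gene Itgav fell, to 129 ± 4.09 CPM in KO against 194 ± 6.39 CPM in WT, as did its partner chain gene Itgb3, to 58.3 ± 1.16 CPM in KO against 79.3 ± 1.64 CPM in WT (SD, n = 3 each for these levels). The clearance receptor gene Lrp1 was 1.05-fold higher by edgeR, and its log2 fold change of -0.06 on the TPM scale differs from that by about the common shift of -0.14. The adjusted p was 6.81e-34 for Fpr1 and 0.000571 for Lrp1 (edgeR), with the others between them.

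**Figure D4:**
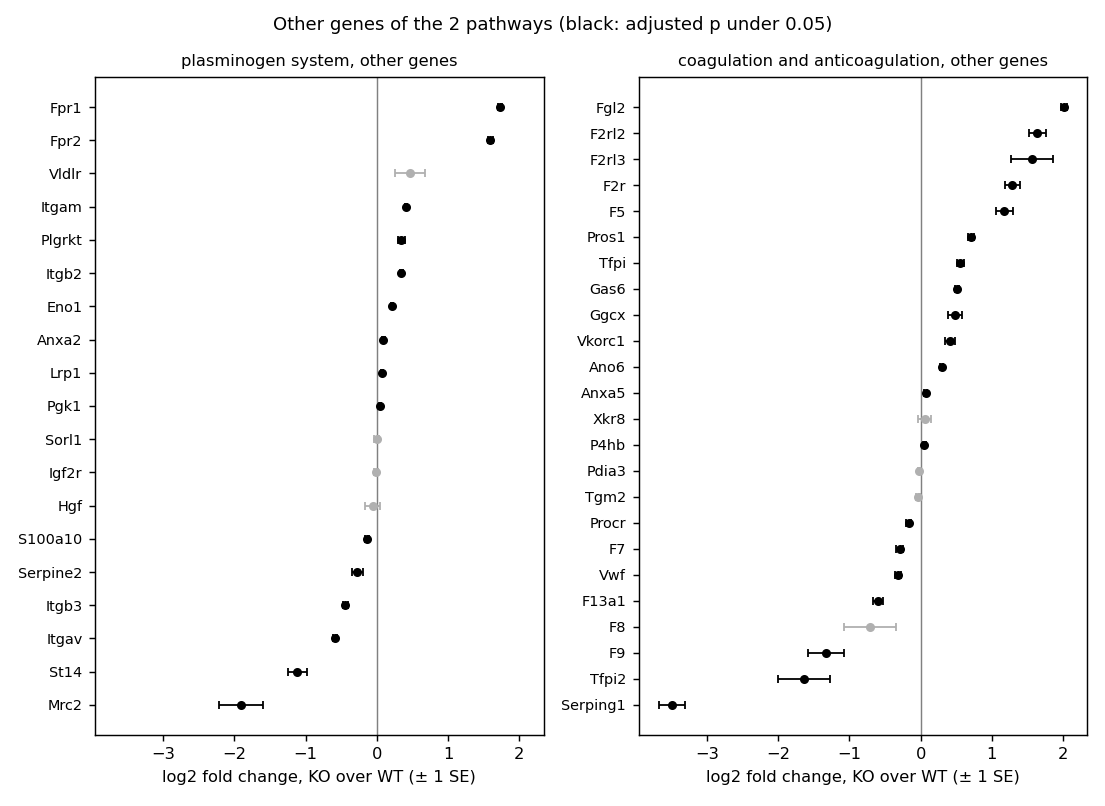
Log2 fold change of KO over WT (horizontal axes, bars of 1 SE) for the tested genes of the plasminogen list (left) and of the coagulation list (right), apart from the 9 genes, from edgeR on counts. Black points passed an adjusted p of 0.05 and grey points did not. Fpr1 stands highest and Mrc2 lowest on the left, and Fgl2 highest and Serping1 lowest on the right.

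In coagulation, 24 of 35 listed genes were tested, of which 13 rose, 7 fell and 4 did not pass (34.4% and 34.9% of all genes tested rose and fell), with a median log2 fold change of 0.06. Thrombin receptor genes rose with F10: F2r, encoding the receptor PAR1, was 2.44-fold higher, at 10.97 ± 1.03 CPM in KO and 4.49 ± 0.415 CPM in WT, and F2rl2, encoding PAR3, was 3.11-fold higher, at 9.47 ± 0.837 CPM in KO and 3.04 ± 0.343 CPM in WT (SD, n = 3 each). Fgl2, a membrane protein gene with prothrombin-cleaving activity, rose 4.05-fold, to 145 ± 3.08 CPM in KO against 35.9 ± 3.15 CPM in WT (SD, n = 3 each). Genes of inhibitors went both ways. Tfpi, encoding the inhibitor of tissue factor with factor VII, rose 1.47-fold, and Pros1, encoding the anticoagulant protein S, rose 1.64-fold. Its relative Gas6, a ligand of receptors that take up dying cells, rose 1.42-fold, while the C1 inhibitor gene Serping1 fell 11.2-fold, to 0.662 ± 0.154 CPM in KO against 7.51 ± 0.737 CPM in WT (SD, n = 3 each). Serping1 (10, 13 and 16 counts in the KO libraries) and Tfpi2, which fell too, passed the filter on low counts only through their WT libraries, where they are high. F2rl3, among those that rose, passed it only through its KO libraries. The place of these genes in the counts above is no support. F7, encoding factor VII, was 1.23-fold lower and Procr, encoding the protein C receptor, 1.12-fold lower. The highest adjusted p among those given with a fold change was 0.000103, for Procr (edgeR).

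Platelets carry several of these transcripts, and 9 of 9 platelet and megakaryocyte markers tested rose, beside 34.4% of all genes tested. The markers had a summed level of 192 to 195 CPM in KO libraries and 70.3 to 73.4 CPM in WT libraries. Of the listed coagulation genes, 13 rose and 7 fell. Those that fell include F13a1, at 10.2 CPM in KO and 15.5 CPM in WT (means). Vwf fell as well, at 41.6 CPM in KO and 51.8 CPM in WT (means). The part of platelets in the rises and falls among the coagulation genes was not tested.

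The clade B serpins lie in gene clusters, and their changes differed between neighbours. On chromosome 1, Serpinb2 has Serpinb10 as its next gene, which rose as well, with 61, 54 and 59 counts in the KO libraries, against 23, 27 and 18 in the WT libraries (log2 fold change 1.41, SE 0.192, adjusted p = 5.7e-08, edgeR). Serpinb8, the gene after it, was only 1.10-fold higher, at 75.2 CPM in KO and 68.5 CPM in WT (means, n = 3 each; SE of the log2 fold change 0.0341). Serpinb7 and Serpinb11, on the other side of Serpinb2, had at most 2 counts in any library.

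On chromosome 13, Serpinb1a, Serpinb9 and Serpinb6a lie in 1 cluster with close relatives. There, Serpinb6b fell 3.53-fold, with 127, 125 and 120 counts in the KO libraries, against 476, 447 and 445 in the WT libraries. Serpinb9b fell 5.29-fold, with 55, 61 and 46 counts in the KO libraries, against 326, 279 and 288 in the WT libraries. Serpinb1c, named after its values were seen, was 5.49-fold lower, at 0.272 ± 0.128 CPM in KO and 1.52 ± 0.131 CPM in WT (SD, n = 3 each), but it passed the filter on low counts only through its WT libraries, where it is high. Serpinb6b and Serpinb9b are thus each a relative of a gene that did not fall, in a cluster whose members share sequence, and reads that fit more than 1 member could be split between them. The deposited counts of Serpinb6b, Serpinb9b and Serpinb9 were whole numbers in every library, and those of Serpinb6a were not. Sharing of reads was not tested. Of the 7 other clade B serpins tested, 2 rose, 3 fell (Serpinb1c among them) and 2 did not pass. Of the 5 tested serpins of other clades, 4 fell and 1 did not pass. Among all genes tested, 34.4% rose and 34.9% fell. In the other clades the median log2 fold change was -0.69, with the largest falls for Serpinf1 (6.78-fold) and Serpinh1 (6.68-fold), both at under 5 CPM in either group and both also fibroblast products. Serpinh1 (16, 13 and 9 counts in the KO libraries) and Serpina3f, which was not called, passed the filter on low counts only through their WT libraries, where they are high. Their place in these counts and in the median is therefore no support. Serpini1 (4.31 ± 0.872 CPM in KO and 6.61 ± 0.227 CPM in WT) and Serpina3g (2.16 ± 0.142 CPM in KO and 3.09 ± 0.361 CPM in WT) fell less (SD, n = 3 each).

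**Figure D5:**
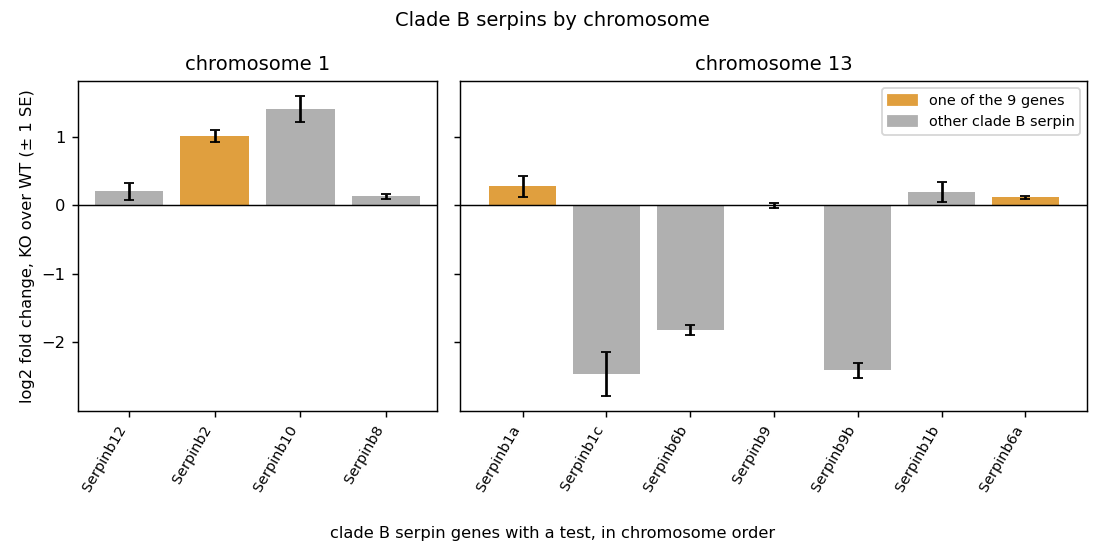
Log2 fold change of KO over WT (vertical axis, bars of 1 SE) of the tested clade B serpins on chromosomes 1 and 13, in chromosome order and not to scale of distance. Orange bars are Serpinb2, Serpinb1a, Serpinb9 and Serpinb6a, and grey bars are other clade B serpins. Serpinb2 and Serpinb10 stand side by side with rises, and Serpinb1c, Serpinb6b and Serpinb9b fall between genes near 0.

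Of the proteases that intracellular serpins inhibit, 8 of 13 listed genes were tested, of which 3 rose and 5 fell (34.4% and 34.9% among all genes tested), with a median log2 fold change of -0.07. Prtn3, among those that fell, was at 0.187 CPM in KO and 0.784 CPM in WT (means). It passed the filter on low counts only through its WT libraries, so its place in these counts is no support. The cathepsin L gene Ctsl rose 1.44-fold, to 4889 ± 92.4 CPM in KO against 3392 ± 16.9 CPM in WT, and the cathepsin K gene Ctsk fell 1.90-fold, to 273 ± 3.66 CPM in KO against 519 ± 9.37 CPM in WT (SD, n = 3 each). Ctsh, another cathepsin gene, rose to 274 ± 8.10 CPM in KO against 226 ± 0.931 CPM in WT, and the caspase 8 gene Casp8 rose to 103 ± 3.06 CPM in KO against 91.6 ± 1.68 CPM in WT, while the cathepsin B gene Ctsb fell by 0.07 on the log2 scale (SD, n = 3 each). Ctsg, the cathepsin G gene, had 2, 3 and 3 counts in the KO libraries, against 12, 11 and 8 in the WT libraries, and was too low to be tested.

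Among 9577 other genes with a mean of at least 5 CPM, those whose log2 CPM followed Plau most closely over the 6 libraries were Eif5, Cd44 and Huwe1 (Pearson's r of 0.9999 each), and those that followed Plaur were Rpl34, Washc5 and Il7r (0.9999, 0.9996 and 0.9996). With 6 libraries in 2 groups such values mostly restate the difference between KO and WT, as the median absolute r with Plau was 0.925 over all these genes. The sizes of the changes differed, with Eif5 1.52-fold, Cd44 1.40-fold and Huwe1 1.09-fold lower in KO. Il7r was 2.70-fold lower in KO, and Rpl34 has a near-identical copy, so its counts are uncertain.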

How the data were processed

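RNA sequencing libraries of polyA-selected RNA from 3 KO and 3 WT samples were analysed from 1 deposited expression table. The submitters' processing notes name HISAT, Bowtie2 and GRCm38.p6 without saying what each was used for, and no source used here names the counting tool. The deposited expected counts per gene (not whole for 8.66% to 9.19% of genes) were rounded. The deposited FPKM and TPM columns are the authors' own, as named in the file headers. A deposited normalised count signal, which is the count times a constant per library, was not used, and a deposited heat map table of log2(FPKM + 1) values holds 6 of the 9 genes among 6784.

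Counts were tested with edgeR 4.0.16 in R 4.3.3 (quasi-likelihood test, TMM scaling, filterByExpr, group as the only term, Benjamini-Hochberg adjustment over 11817 genes, threshold 0.05), with DESeq2 1.42.0 and limma 3.58.1 among the alternatives. CPM values are scaled to TMM-adjusted library sizes. The limma tests on FPKM and TPM used the same genes and a pseudocount of 1 or 0.1. Chi-square per gene between libraries of a group was 1.37 to 1.59, above counting noise, so no library was treated as a repeat deposit of another. A floor of 3 counts corresponds to 0.146 to 0.153 CPM and covers counting error only. Gene names, coordinates and promoters came from RefSeq of GRCm38.p6, strands and overlaps from GENCODE M21. Python 3.11.15 with SciPy 1.17.1 and matplotlib 3.10.9 made the exact permutation tests and plots.

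The 9 genes and all gene lists were chosen with earlier results of these data known. Genes were named by this rule: the 9, Men1, up to 5 per list with the smallest p and a mean of at least 1 CPM, set relatives (Plat, Lrp1, Tfpi, Procr, F2r and F7) and the 3 genes most like Plau and Plaur. 1 gene of the plasminogen list is not reported here and was left out of the list's counts and plot; the others the rule gives are all in the text. Marker genes and the genes Gzmb, Elane, Ctsg, Prtn3, Serpinb7, Serpinb11, Nqo2, Ripk1, Itgb3, Mrc2, Serpine2, Tfpi2, F2rl3, F13a1, Serpina3f and Serpinb1c were named from the lists or positions after their values were seen.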

Additional observations from a re-analysis of the deposited data

How the results depend on the processing

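Plau, Plaur, Serpinb2, F10 and Men1 kept their direction and passed in all 16 alternatives. Leaving out 1 library in turn gave log2 fold changes of -1.32 to -1.29 for Plau, -1.16 to -1.11 for Plaur, 0.91 to 1.13 for Serpinb2 and 0.91 to 0.98 for F10, and 6 to 8 of the 9 genes passed. In those fits 65% to 66.5% of all genes tested passed. When a biological coefficient of variation of 0.1 was imposed (the fitted one was 1.66%), 4406 genes passed (37.3% of those tested, with 2180 higher and 2226 lower) and 5 of the 9. On log2(TPM + 1), 2366 genes were higher. Signs turned for Serpinb6a (-0.0232) and Lrp1 (-0.0632) on log2(TPM + 1), where the shift of the median of all genes (-0.136) is about the difference from their count values (0.119 and 0.0748). Signs also turned for Serpinb9 without the low-count filter (0.0083), in DESeq2 (0.000547) and without KO replicate 1, WT replicate 1 or WT replicate 2 (leave-one-out range -0.0211 to 0.0265), none of which passed in either direction. For Serpinb9 the cause was not tested. The 8 ratios were lower in KO in all 9 alternatives run for them. F3 was removed by the filter of at least 1 CPM in 3 libraries. Depth limits F3, with 5 to 13 counts per library. With the replicate number as a block, 8321 genes (70.4% of those tested) and 7 of the 9 passed, so it changed no call among the 9. Deviations of same-numbered KO and WT libraries correlated at 0.102, 0.0614 and 0.0820, each library's best match being its own number, which is a hint from the data and not from the design, since the labels give the numbers no meaning.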

Other observations

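Among the clade B serpins of chromosome 1 on the far side of Serpinb7 and Serpinb11, Serpinb12 was the one high enough to be tested, at 5.18 ± 0.400 CPM in KO and 4.49 ± 0.240 CPM in WT (SD, n = 3 each; log2 fold change 0.21, adjusted p = 0.123, edgeR). On chromosome 13, Serpinb1b, a relative of Serpinb1a, was at 3.46 ± 0.222 CPM in KO and 3.02 ± 0.289 CPM in WT (SD, n = 3 each; adjusted p = 0.225, edgeR).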
